A study of Mus musculus and Homo sapiens with 16 samples.

Results

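The elements described are 2104 KLF5-bound active distal elements of mouse embryonic skin epithelium, out of 6433 KLF5 peaks called on chromosomes 1 to 19, X and Y (32.7%). They were chosen by 3 measured peak lists and a distance. A KLF5 peak became a member when it overlapped, by at least 1 bp, both a peak of H3K27ac and a peak of ATAC signal, and when its summit lay more than 1 kb from every annotated gene start. The remaining KLF5 peaks were 2333 at active promoters, 1138 in open chromatin without H3K27ac and 858 outside ATAC peaks. The H3K27ac list held 18155 peaks and the ATAC list 41905. Among active distal ATAC peaks, 3079 carried no KLF5 peak and serve as the comparison. These were placed by the ATAC summit and the ATAC peak's overlap with H3K27ac, while members were placed by the KLF5 summit and peak.

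KLF5 is a Krüppel-like zinc-finger transcription factor that binds CACCC and GC-box sequences and acts in the proliferating and differentiating layers of epithelia. H3K27ac is a histone acetylation found at active promoters and enhancers, and ATAC-seq reads chromatin that is open to a transposase. Distal elements that carry both are usually counted as candidate enhancers, and they can act on genes other than the nearest one. Assigning them by distance is therefore a convention.

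The 3 peak lists came from C57BL/6 skin epithelium at E17.5, sorted as DAPI-, CD45- and Integrin A6+ and labelled wild type, with 1 sample for each assay. The title of the ATAC sample says Het while its genotype label says wild type. With no replicate list, peak heights have no error. RNA was read in 3 E17.5 libraries labelled Klf5-/- and 3 labelled Klf5+/-, all C57BL/6 and sorted by the same markers. Another 2 libraries labelled Klf5-/- and 2 labelled Klf5+/- carry the letters HFD in their titles, an abbreviation the labels do not expand. These were unsorted peeled C57BL/6 epidermis with no stage or age given. The labels name no allele, Cre driver or number of animals behind a library, so p-values cover only the spread between libraries, which may be technical. The IgG ChIP library is not analysed here.

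Klf5 itself, on chromosome 14 from 99298691 to 99313405 (mm10, plus strand), did not have fewer counts where the label says Klf5-/-. It had 6934, 7211 and 6501 counts in the E17.5 libraries labelled Klf5-/-, against 8376, 6609 and 6624 in the Klf5+/- libraries, and the groups overlapped (edgeR log2 fold change 0.02 ± 0.10 SE, adjusted p = 0.982). In the HFD set it had 2953 and 4956 counts in the libraries labelled Klf5-/-, against 2523 and 1575 in the Klf5+/- libraries (edgeR log2 fold change 1.06 ± 0.23 SE, adjusted p = 0.0534). Every direction below rests on these genotype labels. Total counts on genes lay between 31819010 and 46445546 per library. In the E17.5 Klf5+/- libraries the median level of 10 keratinocyte markers was 1555 RPKM (scaled reads per kilobase of exon). The medians of fibroblast, endothelial, immune and muscle markers were 0.314, 0.0137, 1.34 and 0.0121 RPKM, although Dcn, a fibroblast proteoglycan gene, reached 220 RPKM. Melanocyte and erythroid markers had higher medians of 9.63 and 7.46 RPKM, against 5.57 RPKM over all tested genes. Among the keratinocyte markers, 5 of 10 had an H3K27ac peak at their start and 5 of 10 a KLF5 peak. Of 7 melanocyte markers, 2 had an H3K27ac peak and 1 a KLF5 peak, and of 10 fibroblast markers 1 had each. None of 7 endothelial, 7 immune, 5 muscle or 7 erythroid markers had either. An ATAC peak lay at the start of 5 of 10 keratinocyte, 3 of 10 fibroblast and 3 of 7 melanocyte markers. The same held for 3 of 7 endothelial, 1 of 7 immune, 1 of 5 muscle and 3 of 7 erythroid markers.

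The sequences under the members could be read where a summit fell in a RefSeq start window, the 300 bases from 250 before to 50 after an annotated RefSeq gene start (GRCm38.p6, the build of the peak lists). This held for 107 of the 2034 members whose windows could be searched (5.26%), against 1345 of 2281 KLF5 promoter peaks (59.0%). These are distal by the gene model of the count files and still lie at a RefSeq start. For 68 of the 107, the summit lay inside the gene that gives the window its symbol, and so at a start within that gene's body. Their H3K27ac peaks had a median fold enrichment of 4.56 and a median width of 866 bp, against 3.59 and 561 bp for the other 1927. The 5 stretches below are from such windows. They are shown because they hold the bases before internal or alternative starts that carried a KLF5 summit, and 2 of them belong to genes of ceramide conversion and of basal adhesion. Each is 150 bases of the gene's strand, and capitals mark matches to CCNCNCCC, the core shared by KLF and SP factors, on either strand.
Chmp4b, chr2:154656876-154657025, plus strand: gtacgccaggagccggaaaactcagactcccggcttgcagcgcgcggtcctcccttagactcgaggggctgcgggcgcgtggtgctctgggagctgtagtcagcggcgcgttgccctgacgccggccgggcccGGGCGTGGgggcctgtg
Lrif1, chr3:106721532-106721681, plus strand: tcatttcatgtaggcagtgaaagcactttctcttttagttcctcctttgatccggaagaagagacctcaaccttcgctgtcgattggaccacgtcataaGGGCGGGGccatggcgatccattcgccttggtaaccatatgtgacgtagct
Sgms1, chr19:32211078-32211227, minus strand: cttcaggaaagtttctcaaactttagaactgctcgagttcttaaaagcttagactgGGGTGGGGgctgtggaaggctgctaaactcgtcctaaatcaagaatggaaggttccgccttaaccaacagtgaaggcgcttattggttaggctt
Dst, chr1:34160012-34160161, plus strand: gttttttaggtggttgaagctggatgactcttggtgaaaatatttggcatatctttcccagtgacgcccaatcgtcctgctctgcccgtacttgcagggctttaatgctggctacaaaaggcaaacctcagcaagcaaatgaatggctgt
Ctnnb1, chr9:120933250-120933399, plus strand: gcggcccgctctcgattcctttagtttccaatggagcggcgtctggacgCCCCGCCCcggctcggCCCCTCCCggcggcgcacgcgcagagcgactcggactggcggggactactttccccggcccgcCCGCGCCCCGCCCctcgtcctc

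The KLF5 fold enrichment of these elements was 6.21 at Chmp4b, an ESCRT subunit gene, and 5.20 at Lrif1. It was 5.16 at Sgms1, the sphingomyelin synthase that makes sphingomyelin from ceramide, where the summit lay 178562 bp into the gene. It was 5.11 at Dst, whose epithelial product anchors keratins at hemidesmosomes, 251862 bp into the gene. It was 4.16 at Ctnnb1, beta-catenin, where the summit lay 44 bp after the RefSeq start and so outside the stretch shown. The Sgms1 and Dst elements were too far from a start in the count files' gene model to be assigned a gene. The Dst stretch holds no match in these letters and the Ctnnb1 stretch holds 4.

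The KLF and SP core CCNCNCCC was in 94 of the 107 member windows (87.9%), in 84.6% of 1344 windows under KLF5 promoter peaks and in 49.7% of all 32544 RefSeq windows. The GC box CCCCGCCC, whose matches all overlap that core, was in 43.0% of the member windows, 52.2% of the promoter windows and 17.7% of all. The CACCC box CCACACCC was in 4.67% of the member windows, 6.18% of the promoter windows and 3.57% of all. The windows also differed in base composition, with a median of 64.3% G and C under members, 64.7% under promoter peaks and 53.0% over all, and its part in these shares was not tested. The AP-1 letters TGANTCA were in 12 of the 107 member windows (11.2%), in 4.99% of the promoter windows and in 7.79% of all. The TEAD letters GGAATG were in 18.7% of the member windows, 10.7% of the promoter windows and 14.6% of all. The AP-2 letters GCCNNNGGC were in 25.2% of the member windows, 27.6% of the promoter windows and 16.7% of all. A p63 response element was matched in 9.35% of the member windows, 4.46% of the promoter windows and 7.11% of all. For the GRHL letters AACCNGTT these shares were 2.80% under members, 1.56% under promoter peaks and 2.09% of all. TTGCNNAA (C/EBP) was in 4.67% of the member windows, 6.32% of the promoter windows and 10.8% of all. TGTGGTT (RUNX) was in 1.87% of the member windows, 2.98% of the promoter windows and 5.29% of all. The GATA factor letters AGATAA were in 4.67% of the member windows, 2.83% of the promoter windows and 11.2% of all. All motifs were searched on both strands, and a match is a description of the letters only.

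Most members lay within 100 kb of a gene. The nearest start of any annotated gene was 1 to 5 kb away for 394 members (18.7%), 5 to 20 kb for 740 (35.2%), 20 to 100 kb for 822 (39.1%) and over 100 kb for 148 (7.03%), with a median of 17580 bp. The active distal ATAC peaks without KLF5 had a median distance of 17110 bp. The summit lay in a gene body for 1039 members (49.4%), against 54.4% of the peaks without KLF5, and 998 members (47.4%) lay upstream of the nearest start. Just inside the 1 kb limit were members 1015 bp from Psapl1, 1022 bp from Sertad3 and 1025 bp from Morf4l1, with KLF5 fold enrichments of 4.10, 3.40 and 4.57. Just outside were peaks 990 bp from Igf1r, 990 bp from Stat6 and 999 bp from 5031425E22Rik, with 3.83, 3.80 and 3.73.

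Heights are the authors' fold enrichments at the summit over local background. The KLF5 fold enrichment of the members ranged from 2.39 to 18.9 with a median of 4.10, and the median at active promoters was also 4.10. The median −log10 q was 6.50 at members and 6.04 at active promoters, and 509 members (24.2%) reached at least 10. KLF5 peaks open without H3K27ac had a median fold of 3.83 and those outside ATAC peaks 3.82. The surrounding chromatin of members was lower than that of promoters in both other lists. The overlapping ATAC peak had a median fold of 6.84 at members and 8.22 at promoters, and the overlapping H3K27ac peak 3.61 at members and 5.01 at promoters. The H3K27ac peaks at members were also narrower, with a median of 572 bp against 928 bp. The KLF5 summit lay a median of 104 bp from the ATAC summit and 94 bp from the H3K27ac summit, and in 1607 members (76.4%) within 200 bp of an ATAC summit.

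The share of active distal elements with a KLF5 peak was higher where the ATAC and H3K27ac peaks were taller. Of 5141 ATAC peaks that either overlapped a member or were active, distal and without KLF5, 2062 overlapped a member (40.1%). The share rose over the quartiles of ATAC fold enrichment, from the lowest to the highest, through 31.4%, 36.6%, 44.5% and 48.2%. Over the quartiles of H3K27ac fold enrichment it was 33.2%, 36.5%, 42.8% and 47.3%. The median ATAC fold was 6.83 for the peaks overlapping a member and 6.07 for those without KLF5. Their median widths were 619 bp and 561 bp, and the part of width in these shares was not tested. The regions come from 1 library per assay and are not replicates, so these values carry no test.

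**Figure D1:**
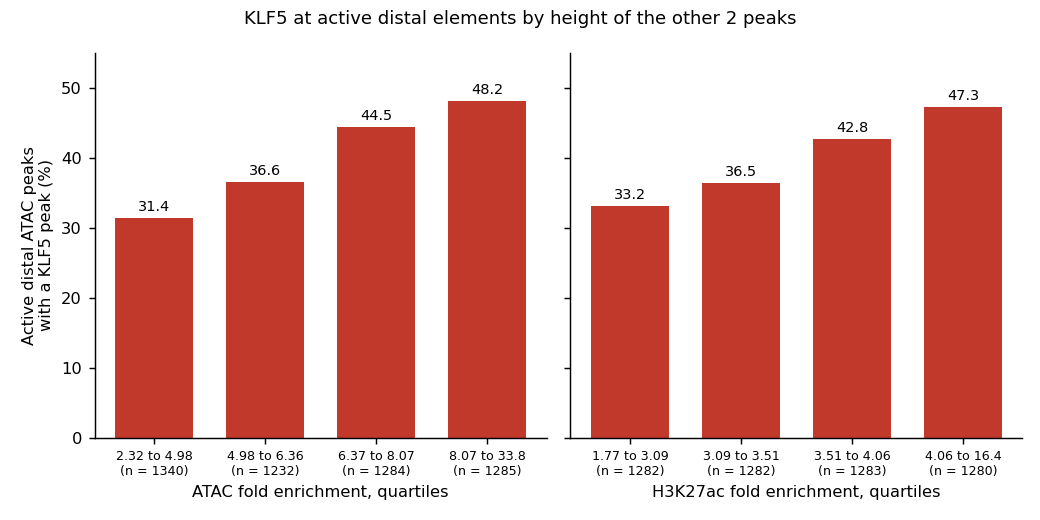
Share of active distal ATAC peaks that overlap a KLF5 member, in percent (y axis), over quartiles of ATAC fold enrichment (left) and of the H3K27ac fold enrichment of the overlapping peak (right), with the range and number of peaks under each bar. The lowest and highest quartiles hold 31.4% and 48.2% on the left and 33.2% and 47.3% on the right.

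The 10 tallest KLF5 members mostly lay at the tallest H3K27ac peaks, while their ATAC heights varied. The highest, on chromosome 9 from 35305089 to 35305642 and 37.5 kb from the start of Rpusd4, had a KLF5 fold of 18.9, an ATAC fold of 33.7 and an H3K27ac fold of 16.4, and no H3K27ac peak of the list was taller. The 10 tallest had KLF5 folds from 10.6 to 18.9. Of these 10, 9 had an H3K27ac peak in the top 1% of that list and 6 an ATAC peak in the top 1% of its list. Over all members these shares were 1.24% and 2.23%. Of the 100 tallest, 17 had such an H3K27ac peak and 19 such an ATAC peak. Among the 10, the member assigned to Frmd4a had an ATAC fold of 5.86. A member on chromosome Y from 259016 to 259560, with no tested gene start within 100 kb, had 6.27. Both were below the members' median of 6.84. For 6 of the 10 no tested gene started within 100 kb, against 337 of all 2104 members (16.0%). The 4 assigned genes were Rpusd4, Frmd4a, Brox and Gm11670, and Gm11670 lies inside Axin2 on the opposite strand, so their reads may not be told apart. Among all members, 7 were in the top 1% of KLF5, ATAC and H3K27ac heights at once. Whether these regions attract signal in any library was not tested.

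**Figure D2:**
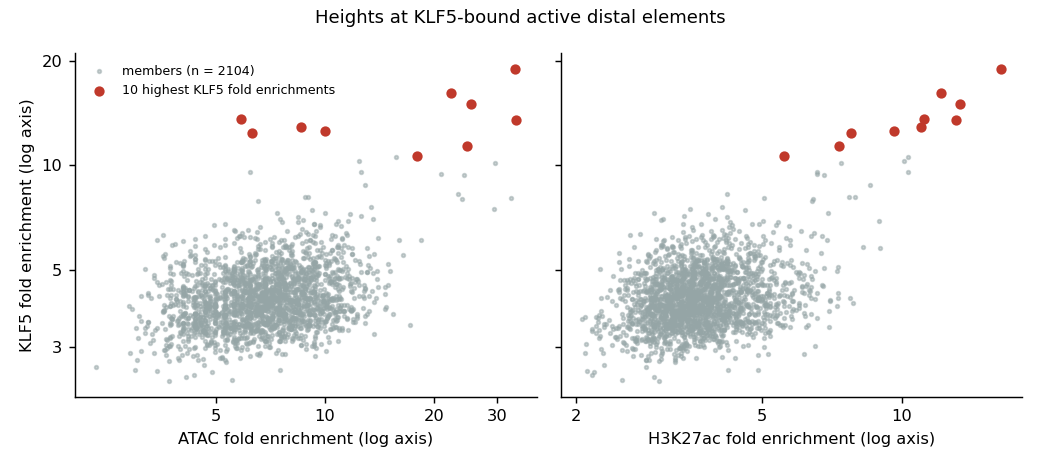
KLF5 fold enrichment of each of the 2104 members (y axis, log scale) against the fold enrichment of the overlapping ATAC peak (left) and H3K27ac peak (right), both on log axes, with the 10 tallest KLF5 peaks in red. The 10 tallest run from 10.6 to 18.9, well above the median of 4.10, and 9 of them lie at H3K27ac heights in the top 1% of that list.

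Members were mostly solitary. Within 10 kb of another member lay 246 (11.7%), and 9 groups held 3 or more. Plec, the plectin gene that links keratins to hemidesmosomes, had 4 members over 18.1 kb of its body on chromosome 15, from 76189916 to 76208032, with a median KLF5 fold of 3.22. Groups of 3 lay at Pkp1 (plakophilin, a desmosomal plaque protein) over 15.3 kb, at Sfn (14-3-3 sigma, a keratinocyte regulator of growth and cell cycle) over 15.0 kb, and at Fos (an AP-1 subunit) over 3.93 kb. Ahnak, Mnt, Vangl1, Uqcc2 and Alyref2 had the others.

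Taking for each member the nearest start of a gene tested in the E17.5 RNA data, within 100 kb, assigned 1767 members to 1480 genes. That is 9.82% of the 15066 tested genes on these chromosomes. A single member belonged to 1250 genes, 2 to 183, 3 to 38 and 4 or more to 9. Of the 1480 genes, 242 (16.4%) also had a KLF5 promoter peak, against 14.3% of all tested genes. The most members, 5, fell to Gm14270, a predicted gene of chromosome 2 at 0.769 RPKM. Genes with 4 were U2af1 (a splicing factor), Amotl1 (an angiomotin-like junction protein), Ets2 (an ETS transcription factor), Ptma (prothymosin), Pkp1, Fos, Ahnak and Plec.

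Genes of keratinocyte adhesion, regulation and signalling carried members at higher shares than the 9.82% of all tested genes. Of the tested genes of each list, a member was assigned to 24 of 58 epidermal regulators (41.4%), 9 of 24 genes of Notch, EGFR and IGF signalling (37.5%), 8 of 22 of the basal layer and hemidesmosome (36.4%) and 10 of 34 junction genes (29.4%). It was assigned to 10 of 38 sphingolipid and ceramide genes (26.3%), 7 of 38 cornified envelope and suprabasal genes (18.4%) and 3 of 21 acylceramide and very long chain fatty acid genes (14.3%). In the hair follicle list it was 3 of 28 (10.7%), close to all tested genes. Among the marker lists, 5 of 10 keratinocyte, 1 of 4 endothelial (Pecam1) and 1 of 7 melanocyte markers (Dct) had one. None of 9 fibroblast, 6 immune, 2 muscle and 7 erythroid markers did. The lists were chosen with earlier results of these data known, and these shares are given with no test.

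**Figure D3:**
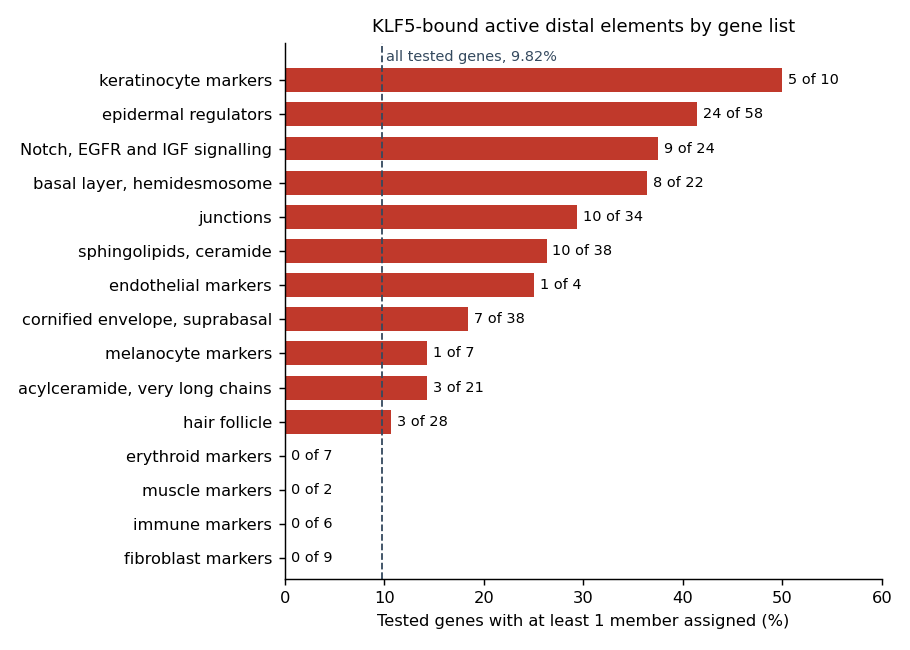
Share of the tested genes of each list that have at least 1 member assigned within 100 kb, in percent (x axis), with the count beside each bar and the share of all tested genes, 9.82%, as a dashed line. Epidermal regulators reach 41.4%, while the marker lists range from 5 of 10 for keratinocytes over 1 of 4 for endothelium to 0 of 9 for fibroblasts.

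Among the regulators, Ets2 had 2 members before its start, at 42.5 and 26.7 kb, and 2 after it, with KLF5 folds of 4.52, 5.12, 4.11 and 3.16. Fos had 3 between 18.5 and 22.2 kb before its start and 1 at 16.3 kb after it. Jun, its AP-1 partner, and Rxra, a retinoid receptor, had 2 each, as had Fosl2, Hes1, Hopx, Grhl2, Id1, Id3 and Tead3. Trp63, which encodes p63, the factor of the stratified epithelial lineage, had 1, as had Klf4, Ovol1, Ehf, Grhl3, Junb and Vdr. Klf5 had 1 too, on chromosome 14 from 99375058 to 99375438 and 76.6 kb past its start, with a KLF5 fold of 4.18, an ATAC fold of 4.35 and an H3K27ac fold of 2.88.

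The junction genes with members were Pkp1, Dsp (desmoplakin), Cdh1 (E-cadherin), Ctnnb1, Jup, Cldn1, Gjb6, Dsg3, Perp and Dsc1. The 3 members of Cdh1 lay 5.34, 16.3 and 20.1 kb into the gene with folds of 3.06, 3.03 and 3.73. The tallest at Dsp lay 11.6 kb into the gene with a fold of 5.61. At the basal side, Itga3, an integrin chain, had 2 and Col7a1, the anchoring fibril collagen, had 1 of 5.82 at 4.22 kb before its start. Itga6, the integrin used for the sort, Col17a1, Krt14 and Trp63 had 1 each. In Notch and growth factor signalling, Irs2 had 2 and Jag1, Jag2, Notch2, Notch3, Erbb2, Lrig1 and Errfi1 had 1 each. In the hair follicle list the genes were Axin2, Dlx3 and Gli1.

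The sphingolipid genes with members included genes of synthesis, transfer and breakdown of ceramide. Sptlc1 and Sptssa encode subunits of serine palmitoyltransferase, Cers3 and Cers6 ceramide synthases, Col4a3bp a ceramide transfer protein, Cerk ceramide kinase, and Asah1, Asah2 and Acer3 ceramidases. Asah2 had 2 members, on chromosome 19 from 32069602 to 32069975 and from 32142364 to 32142938. They lay 8.33 and 81.2 kb before its start with folds of 3.81 and 5.12, the second inside the body of another gene. The member of Sptssa had the highest fold of the list, 6.25, at 81.1 kb past its start, and that of Cers6 had 5.82 at 64.4 kb past its start. The acylceramide list had Elovl4 (an elongase of very long chain fatty acids), Sdr9c7 (a dehydrogenase of acylceramide linoleate) and Ptplb (an elongation cycle dehydratase), with folds of 3.55, 4.29 and 3.86. Of the cornified envelope list, Calm4 (a calmodulin-like protein of skin) had 3 members and Klk5, a protease of desquamation, had 1. Rptn (repetin), Krtdap, Ivl (involucrin), Ppl (periplakin) and Krt78 had 2 each. The Krtdap member 11.7 kb before its start lay inside Dmkn.

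Genes near members were expressed at higher levels than tested genes as a whole. In the E17.5 Klf5+/- libraries their median was 8.70 RPKM, with library medians of 8.83, 8.52 and 8.30, against 5.57 over all tested genes, with 5.60, 5.48 and 5.49. The libraries' ranges did not overlap. The median was 7.90 RPKM with 1 member, 11.3 with 2, 13.2 with 3 and 58.0 for the 9 genes with 4 or more. It was 7.54 RPKM for genes near active distal ATAC peaks without KLF5 and 12.4 for genes with a KLF5 peak at an active promoter. Genes with both a member and a KLF5 promoter peak had 17.3 and those with a member alone 7.50. When each member was given the nearest start of all annotated genes, 1689 genes had a median of 1.50 RPKM. Of these 1066 were tested at E17.5, so the 5.57 RPKM over tested genes is no reference for that set.

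At E17.5 few genes near members differed between the genotypes, and those that did were lower in the libraries labelled Klf5-/-. Of the 1480 genes, 3 passed an adjusted p of 0.05 by edgeR's quasi-likelihood test (0.203%), all lower and none higher. Over all 15092 tested genes the same test called 13 (0.0861%), of which 8 were lower (0.053%) and 5 higher (0.0331%). At an unadjusted p under 0.05, 220 genes near members passed (14.9%), 172 lower and 48 higher, against 1512 of all tested genes (10.0%), 941 lower and 571 higher. The median log2 fold change was −0.02 near members and 0.01 over all genes. Near active distal peaks without KLF5 it was −0.003, with 13.5% at an unadjusted p under 0.05. Of 830 genes near KLF5 peaks open without H3K27ac, 145 reached that level, 109 lower and 36 higher, a larger share than near members. Left out in turn, replicates 1 and 2 of the libraries labelled Klf5-/- and each of the 3 Klf5+/- libraries gave 0 genes near members by edgeR, with 131 to 246 at an unadjusted p under 0.05. These fits called 0% to 0.0324% of all genes. Without replicate 3 of the libraries labelled Klf5-/- 82 passed, 76 of them lower, against 3.31% of all genes. DESeq2 called 69, of which 64 were lower, against 2.72% of all genes.

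Fam25c (ENSMUSG00000043681, chromosome 14) had 52.6, 37.7 and 48.7 CPM (library-scaled counts) in the E17.5 libraries labelled Klf5-/-, against 91.9, 112.1 and 88.3 CPM in the Klf5+/- libraries. No library of one genotype reached the other (edgeR log2 fold change −1.07 ± 0.14 SE, adjusted p = 0.0319). Its member lay 8.31 kb before the start, on chromosome 14 from 34363258 to 34364010, with a KLF5 fold of 6.91. Slco3a1, an organic anion transporter gene of chromosome 7, had 42.5, 44.5 and 50.9 CPM in the libraries labelled Klf5-/-, against 96.5, 80.3 and 72.8 CPM in the Klf5+/- libraries. The genotypes did not overlap here either (edgeR log2 fold change −0.86 ± 0.12 SE, adjusted p = 0.0432), and its member, 60.7 kb before the start, had a fold of 6.20. 4631405J19Rik, an unnamed RIKEN transcript of chromosome 2 with 2 members, had 23.3, 28.2 and 27.4 CPM in the libraries labelled Klf5-/-, against 44.3, 40.7 and 44.9 CPM in the Klf5+/- libraries. It too did not overlap (edgeR log2 fold change −0.72 ± 0.10 SE, adjusted p = 0.0469). With library totals as scaling Slco3a1 and 4631405J19Rik missed the threshold, at edgeR adjusted p of 0.0929 and 0.103.

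Of the 72 genes with a member in the 8 lists, 0 passed edgeR's test at E17.5. At an unadjusted p under 0.05, 19 were lower and 2 higher in the libraries labelled Klf5-/-. Over all tested genes 10.0% reached that level, 941 lower and 571 higher. DESeq2 called 9 of the 72, all lower, against 2.72% of all genes. Some of the lipid genes had libraries that did not overlap, and the share of all genes without overlap was not counted. Sdr9c7 had 17.0, 18.8 and 18.6 CPM in the libraries labelled Klf5-/-, against 28.1, 31.5 and 27.7 CPM in the Klf5+/- libraries (edgeR log2 fold change −0.68 ± 0.10 SE, adjusted p = 0.0557). Asah2 had 19.9, 19.7 and 28.1 CPM in the libraries labelled Klf5-/-, against 36.6, 42.1 and 35.6 CPM in the Klf5+/- libraries (edgeR log2 fold change −0.76 ± 0.15 SE, adjusted p = 0.0868). Elovl4 had 205.9, 165.2 and 255.4 CPM in the libraries labelled Klf5-/-, against 313.0, 381.8 and 341.8 CPM in the Klf5+/- libraries (edgeR log2 fold change −0.73 ± 0.15 SE, adjusted p = 0.108). All 3 missed the threshold by this test. They passed by DESeq2, at adjusted p of 5.71e-05, 0.000361 and 0.000222 in that order, and by edgeR with no low-count filter, at 0.00266, 0.00266 and 0.0165.

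The fold changes of the list genes with members at E17.5 were below 0 for all 7 cornified envelope genes, with a median of −0.53, and for 8 of 10 sphingolipid genes, with a median of −0.09. Over the whole lists, with or without a member, the medians were −0.44 for cornified envelope genes, with 9 of 38 above 0, and −0.06 for sphingolipid genes, with 14 of 38 above 0. Krt2, a suprabasal keratin with no member, was the one gene of the 8 lists that passed, and it was higher (edgeR log2 fold change 2.46 ± 0.22 SE, adjusted p = 0.00779). With library totals in place of the scaling factors 6 of the 10 sphingolipid genes were below 0. Of the basal layer genes with a member 7 of 8 were above 0, with a median of 0.10, and over the whole list 18 of 22, with a median of 0.12. Ivl averaged 90.5 ± 16.2 CPM in the libraries labelled Klf5-/- and 131.3 ± 9.37 CPM in the Klf5+/- libraries (SD, n = 3 each), an edgeR log2 fold change of −0.54 ± 0.12 SE at an adjusted p of 0.128. Calm4 averaged 1230 ± 315 CPM in the libraries labelled Klf5-/- and 1841 ± 328 CPM in the Klf5+/- libraries (SD, n = 3 each), an edgeR log2 fold change of −0.58 ± 0.19 SE at an adjusted p of 0.305. Krtdap had a log2 fold change of −0.38 (SE 0.15, edgeR adjusted p = 0.421) and Pkp1 of −0.49 (SE 0.12, edgeR adjusted p = 0.145). Beside these values, the summed CPM of the 10 keratinocyte markers, of which Krt1 and Krt10 had the highest levels per length, was 66100, 57900 and 74300 in the libraries labelled Klf5-/-, against 93200, 99300 and 80600 in the Klf5+/- libraries, while 5 of the 10 fold changes were above 0 and their median was 0.008. The summed CPM of the fibroblast markers was 622, 636 and 694 in the libraries labelled Klf5-/-, against 425, 478 and 572 in the Klf5+/- libraries, with 9 of 9 tested fold changes above 0. The erythroid sum was 266, 742 and 2730 in the libraries labelled Klf5-/-, against 15.8, 93.9 and 1120 in the Klf5+/- libraries. Their part in the results was not tested, and fewer cells of a type cannot be told apart from less RNA per cell.

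**Figure D4:**
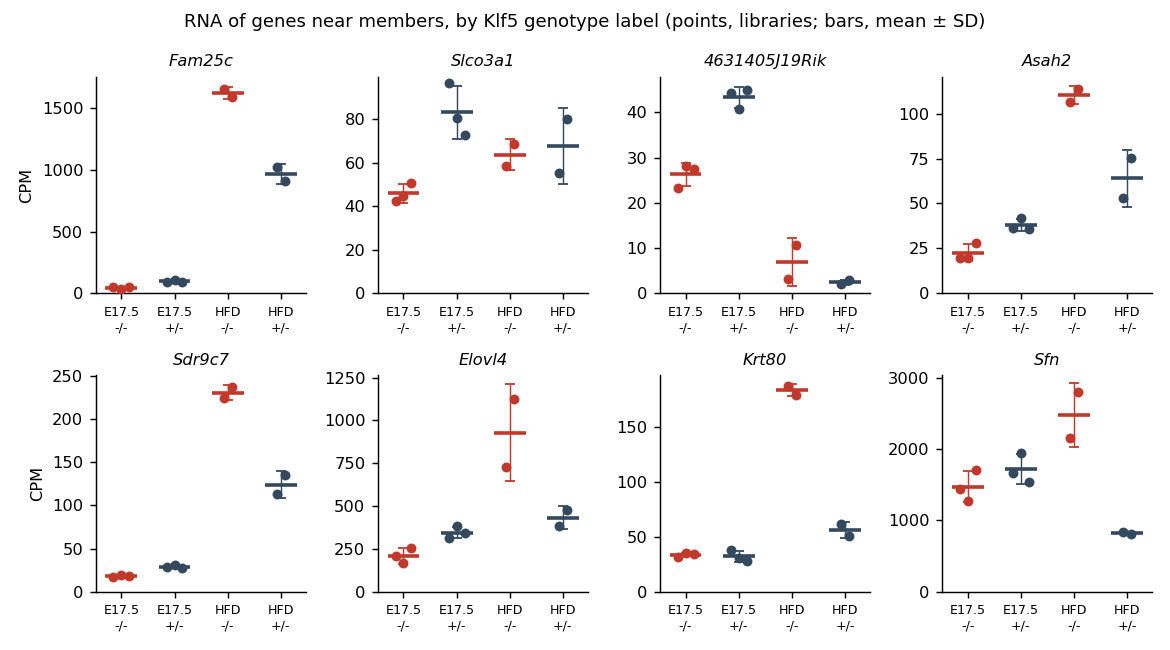
CPM (y axes, from 0) of 8 genes near members in every RNA library, by set and Klf5 genotype label (x axes), with points for libraries and bars for mean ± SD. At E17.5 all 3 libraries labelled Klf5-/- lie below all 3 Klf5+/- libraries for Fam25c, Slco3a1, 4631405J19Rik, Asah2, Sdr9c7 and Elovl4; in the HFD set the libraries labelled Klf5-/- lie above for all but Slco3a1. CPM were scaled within each set.

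In the HFD set the genes near members were, as a group, higher in the libraries labelled Klf5-/- relative to all genes. Of 1408 tested, 91 passed (6.46%), 52 of them higher (3.69%) and 39 lower (2.77%). Over all 15848 genes edgeR called 872 (5.5%), 235 higher (1.48%) and 637 lower (4.02%). With library totals as scaling 104 of the 1408 passed, 32 higher and 72 lower, against 8.46% of all genes. That scaling moved the median of all genes to −0.23, and the median near members exceeded that of all genes by 0.23 under both scalings. The median log2 fold change was 0.22 near members and −0.008 over all genes, and 66.8% of the values near members were above 0, against 49.5% of all. It was 0.20 for genes with 1 member, 0.32 with 2, 0.45 with 3 and 0.58 for the 8 tested genes with 4 or more. Genes near active distal peaks without KLF5 had a median of 0.16, with 2.62% higher and 3.46% lower, and those near no member as well 0.13. The count rested on single libraries. It was 1 without either Klf5+/- library, 570 without replicate 1 and 273 without replicate 2 of the libraries labelled Klf5-/-. The background was then 0.219%, 0.115%, 32.2% and 16.3% of all genes.

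The marker RNA of other cell types also differed between these unsorted libraries. The fibroblast markers summed to 4710 and 779 CPM in the libraries labelled Klf5-/-, against 16900 and 20500 CPM in the Klf5+/- libraries, and 0 of 10 fold changes were above 0. The endothelial markers summed to 68.1 and 13.9 CPM in the libraries labelled Klf5-/-, against 365 and 402 CPM in the Klf5+/- libraries. The keratinocyte markers summed to 56000 and 60300 CPM in the libraries labelled Klf5-/-, against 32400 and 26900 CPM in the Klf5+/- libraries. Muscle markers summed to 500 and 50.8 CPM in the libraries labelled Klf5-/-, against 1580 and 477 CPM in the Klf5+/- libraries, and immune markers to 111 and 80.7 CPM in the libraries labelled Klf5-/-, against 140 and 142 CPM in the Klf5+/- libraries. The muscle sums overlapped between the genotypes, and 3 of 6 tested immune fold changes were above 0. The part of these marker differences in the HFD results was not tested, and fewer cells of a type cannot be told apart from less RNA per cell.

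**Figure D5:**
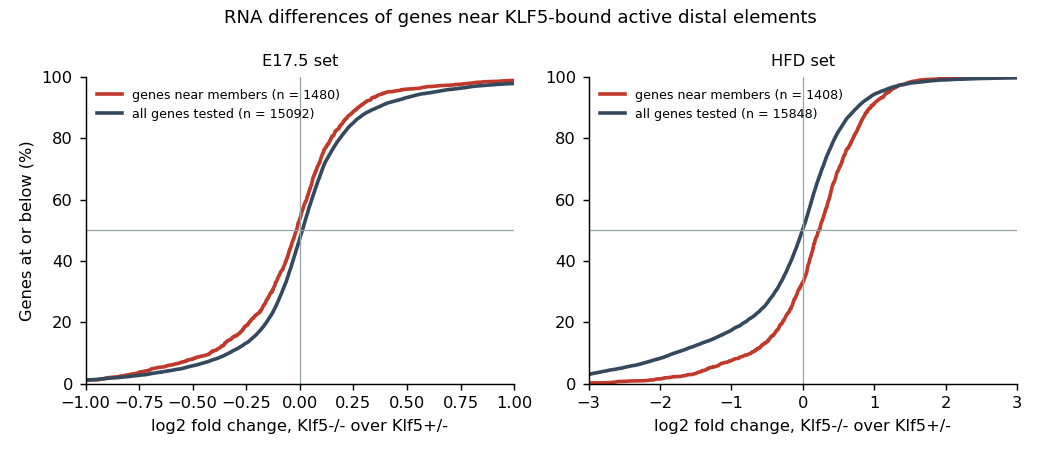
Cumulative share of genes in percent (y axis) at or below each log2 fold change of Klf5-/- over Klf5+/- (x axis), for genes near members in red and all tested genes in dark blue, in the E17.5 set (left) and the HFD set (right). The medians are −0.02 and 0.01 at E17.5 and 0.22 and −0.008 in the HFD set, and the x axes differ in range.

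Among the genes past the threshold in the HFD set, the 5 largest rises were in Krt80, Rptn, Sfn, Pard6b and Defb1. Krt80, a keratin of differentiating epithelia with a member 33.4 kb past its start, had 187.4 and 179.6 CPM in the libraries labelled Klf5-/-, against 61.7 and 51.1 CPM in the Klf5+/- libraries (edgeR log2 fold change 1.70 ± 0.18 SE, adjusted p = 0.0337). Sfn had 2154 and 2791 CPM in the libraries labelled Klf5-/-, against 833 and 803 CPM in the Klf5+/- libraries (edgeR log2 fold change 1.60 ± 0.24 SE, adjusted p = 0.0342). Rptn, Pard6b (a polarity protein) and Defb1 (a beta-defensin) had log2 fold changes of 1.62, 1.60 and 1.55 with edgeR adjusted p of 0.0449, 0.0415 and 0.0337. The libraries of the genotypes did not overlap for any of the 5. These genes were picked by their rise in the same libraries, and the share of all genes without overlap was not counted. With library totals as scaling Rptn missed the threshold (edgeR adjusted p = 0.0511), and without either Klf5+/- library all 5 did, at edgeR adjusted p of 0.0634 to 0.245.

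The 5 largest falls past the threshold were in genes with little RNA in the sorted E17.5 cells, where each had 0.154 to 1.69 RPKM. S100a3, a calcium-binding protein of the hair cuticle, had 8.81 and 7.10 CPM in the libraries labelled Klf5-/-, against 52.5 and 33.5 CPM in the Klf5+/- libraries (edgeR log2 fold change −2.44 ± 0.29 SE, adjusted p = 0.0337). Mamstr, a coactivator of muscle genes, had 3 and 8 counts in the libraries labelled Klf5-/-, against 57 and 74 in the Klf5+/- libraries (edgeR log2 fold change −3.47 ± 0.66 SE, adjusted p = 0.0438). Sorcs2 (a sorting receptor), Tbkbp1 and B3gnt9 (a glycosyltransferase) had log2 fold changes of −2.68, −2.66 and −2.61 with edgeR adjusted p of 0.0391, 0.0337 and 0.0337. Without either Klf5+/- library these calls were lost too, at edgeR adjusted p of 0.0723 to 0.236, except that of S100a3 without replicate 2 (adjusted p = 0.0267). The fibroblast and endothelial marker sums given above were also lower in the libraries labelled Klf5-/-, while the muscle sums overlapped. Whether the falls are linked to these sums was not tested.

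By list, the genes with a member that passed in the HFD set rose in 1 of 10 cases among sphingolipid genes, 1 of 3 among acylceramide genes, 2 of 7 among cornified envelope genes and 2 of 10 among junction genes. Over the whole lists, with or without a member, 4 of 38 sphingolipid, 4 of 22 acylceramide, 9 of 38 cornified envelope and 9 of 34 junction genes rose. Of all genes tested in the HFD set 1.48% rose and 4.02% fell. Among epidermal regulators with a member 3 of 24 rose and 1 fell, and over the whole list 6 of 59 rose and 2 fell. With library totals as scaling the genes with a member that rose numbered 1 for sphingolipid, 0 for acylceramide, 1 for cornified envelope and 1 for junction genes, and 2 regulators rose and 2 fell. In the basal, signalling and hair follicle lists 0 of the 20 tested genes with a member passed edgeR's test. At an unadjusted p under 0.05, 2 of them were higher and 0 lower, while 27.1% of all genes reached that level. DESeq2 called 2 of the 20, both higher, against 17.6% of all genes. The median log2 fold changes of the genes with members were 0.67 for sphingolipid, 0.90 for acylceramide, 1.15 for cornified envelope, 1.00 for junction and 0.62 for regulator genes. With library totals they were 0.45, 0.68, 0.93, 0.78 and 0.40. The signalling genes had a median of 0.21 with scaling factors and of −0.01 with library totals. Sdr9c7 had 224.2 and 236.7 CPM in the libraries labelled Klf5-/-, against 112.7 and 134.8 CPM in the Klf5+/- libraries (edgeR log2 fold change 0.90 ± 0.18 SE, adjusted p = 0.0454). Dsp had 2563 and 3444 CPM in the libraries labelled Klf5-/-, against 1298 and 1098 CPM in the Klf5+/- libraries (edgeR log2 fold change 1.33 ± 0.25 SE, adjusted p = 0.0440). With library totals neither Dsp nor Sdr9c7 passed, at edgeR adjusted p of 0.0522 and 0.0679, nor did they without either Klf5+/- library, at 0.176 to 0.288. Elovl4 and Asah2 missed the threshold, at edgeR log2 fold changes of 1.11 ± 0.28 and 0.78 ± 0.21 (SE) and adjusted p of 0.0686 and 0.0796. Both passed by DESeq2, at adjusted p of 0.00106 and 0.0138, and by edgeR with no low-count filter, at 0.00434 and 0.0152.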

How the data were processed

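RNA was read as counts per Ensembl gene that the authors deposited, 1 file for each library; per the submitters' processing notes, STAR 2.6.0b and HTSeq were used on mm10 (GRCm38), with the strand setting not given in the sources used here. Reads that named no gene (13.4% to 16.9%) stayed out of library sizes and tests. The authors' RPKM values beside the HFD counts were not used; RPKM in the text divide scaled counts by the exon length in the HFD files. The submitters' processing notes name MACS2 as the peak caller and list Bowtie2 2.2.3 and Bowtie 1.0.1; the control library and calling threshold are unstated there. Each deposited list gives, per peak, a fold enrichment (a ratio over local background), −log10 p and −log10 q values and a summit offset. A deposited score column was left unused.

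Overlaps, distances and lists were computed with Python 3.11.15, pandas 2.3.3 and numpy 2.4.6. Separate fits of the 2 RNA sets used R 4.3.3 with edgeR 4.0.16 (filterByExpr, TMM factors, robust quasi-likelihood fit, Benjamini-Hochberg adjustment over all genes, threshold 0.05), and the fit was tested on simulated data. DESeq2 1.42.0 was an alternative. The SE was taken from the F statistic, as absolute log2 fold change over its root. A floor of 3 counts equals 0.0646 to 0.0943 CPM in these libraries. Genes were taken from those that passed the E17.5 filter, so no gene near a member failed it there; 72 of 1480 failed it in the HFD set. Named genes were those past the threshold at E17.5, the 5 largest rises and falls in the HFD set, the 10 with most members, those of the 10 tallest members, and up to 4 of each list. Of the 24 acylceramide symbols 22 matched. The members and lists were chosen with earlier results of these data known. Shared replicate numbers were not used as pairs in the main fits. The deviations of same-numbered E17.5 libraries correlated at 0.026, −0.102 and 0.176, which does not decide whether they were paired. Chromosome 18, absent from the RefSeq windows used, was left out of the sequence description. HaCaT lists (hg19) were not used. Some genes of the lists count in the totals and are not reported here by name.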

Additional observations from a re-analysis of the deposited data

Results flagged for a closer look

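Some genes named above, with a member, and some whole lists had libraries that did not overlap, in opposite directions at E17.5 and in the HFD set. They were lower in every E17.5 library labelled Klf5-/- than in every Klf5+/- library and higher in the HFD set, or the reverse. Only genes picked for the text and the lists were checked, and the share of all genes with such a split was not counted. Opposite signs were also common over all genes: 39.0% of 1408 genes near members and 40.0% of all 14106 genes tested in both sets had the same sign in both. The difference between the sets was not tested here, and the sets differ in sorting, preparation and library kit. Log2 fold changes at E17.5 and in the HFD set were −0.72 and 1.50 for 4631405J19Rik, −0.76 and 0.78 for Asah2, −0.58 and 1.15 for Calm4, and −0.73 and 1.11 for Elovl4. They were −1.07 and 0.75 for Fam25c, −0.49 and 1.15 for Pkp1, and −0.68 and 0.90 for Sdr9c7.

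The same split was seen in the summed CPM of whole lists, given as the log2 ratio of the group means at E17.5 and in the HFD set. It was −0.12 and 0.57 for sphingolipid genes, −0.39 and 0.96 for acylceramide genes, −0.72 and 1.06 for cornified envelope genes, and −0.24 and 0.91 for junction genes. The keratinocyte markers had −0.46 and 0.97, although 5 of their 10 fold changes at E17.5 were above 0. The fibroblast markers went the other way, with 0.40 and −2.77, as did the endothelial markers with 1.35 and −3.23, although the endothelial sums at E17.5 were only 1.96, 3.61 and 1.95 CPM in the libraries labelled Klf5-/-, against 0.863, 0.631 and 1.45 CPM in the Klf5+/- libraries.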

How the results depend on the processing

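Peaks have 1 library per assay, so heights have no error, and with 2 or 3 libraries a group the counts of called genes depended on the setting. Motif shares in windows centred on the distal summits, with their alternatives, were not run, because no genome of the build was used here. The number of members was 1710 to 1946 under the stricter distances and overlaps, and 509 at a −log10 q of at least 10.

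At E17.5 the 3 genes near members that passed became 69 with DESeq2, 1 with library totals, 35 with no low-count filter and 9 with the replicate block, against 2.72%, 0.0398%, 1.02% and 0.278% of all genes. Leaving out 1 library each time gave 0 to 82, the 82 against 3.31% of all genes. In the HFD set the 91 became 308 with DESeq2, 104 with library totals, 284 with no low-count filter and 209 with the replicate block. The shares over all genes were 17.6%, 8.46%, 10.7% and 9.59% in that order. The count was 43 within 20 kb and 33 for members with a −log10 q of at least 10, where 766 and 383 genes were tested. Leaving out 1 library each time gave 1 to 570. With the replicate block Sdr9c7 passed at E17.5 (edgeR adjusted p = 0.0339), as did Elovl4 and Asah2 in the HFD set (0.0285 and 0.0394). The 2 HFD pairs correlated at 0.185, which 2 pairs share by construction. Library totals turned the median log2 fold change at E17.5 to 0.0509, with all genes at 0.0774, and lowered that of the HFD set to 0.00233, with all genes at −0.23. Elsewhere the medians stayed within the spread between libraries. The median RNA level of 8.70 RPKM was 9.53 within 20 kb and 1.50 with the nearest of all annotated genes, tested or not. Without each replicate it was 8.37 to 8.77. Leaving out the 10 tallest members, an alternative chosen after seeing the data, gave 3 genes at E17.5 and 90 in the HFD set. No fold change of a gene tracked across the settings changed sign. The cause of these shifts was not tested.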
